A study of Homo sapiens with 12 samples.

Results

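Levels of 10 genes of the epithelial-mesenchymal transition (EMT) were followed in C4.2B prostate cancer cells exposed to inhibitors of PI3K and EZH2. The genes were listed by name, a rule that uses no measured value. Earlier results of these data were known when they were chosen. They were the mesenchymal markers FN1 and VIM, the transcription factors SNAI1, SNAI2, ZEB1, ZEB2 and TWIST1, and the epithelial genes EPCAM, ESRP1 and ESRP2. All 10 were among the 23228 genes of the count files, and 7 of them were among the 14189 genes abundant enough to be tested. ZEB1, ZEB2 and TWIST1 were not, and are given as counts. C4.2B is an established human castration-resistant prostate cancer cell line, and each arm was represented by 3 polyA RNA-seq libraries named A, B and C. Cells in the DMSO arm received vehicle throughout. Cells in the GDC arm received vehicle before 0.5 µM GDC-0941, a pan-PI3K inhibitor, was added for 24 h. Cells in the GSK arm were kept in 5 µM GSK126, an EZH2 inhibitor, for 6 days beforehand and during those 24 h, and cells in the COMBO arm received the same course of GSK126 with GDC-0941 added. In all 4 arms the final 24 h were in medium with 10% charcoal-stripped serum, which is poor in steroid hormones. The arms differed in the length of exposure to the 2 agents, so a difference between GDC and GSK holds time as well as target. The libraries came from 1 cell line, and nothing in the labels said that A, B and C were independent cultures, so p-values measure the spread between these libraries, which may be technical.

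In EMT, epithelial cells loosen their junctions and take on features of migrating mesenchymal cells. The SNAIL (SNAI1, SNAI2), ZEB and TWIST families are transcription factors that drive it, and SNAIL and ZEB proteins bind E-box sequences in the promoters of epithelial genes and repress them. Fibronectin (FN1) and vimentin (VIM) are produced as cells become mesenchymal, while EPCAM and the splicing regulators ESRP1 and ESRP2 belong to the epithelial state. EZH2 is the catalytic subunit of Polycomb repressive complex 2, which trimethylates lysine 27 of histone H3 and keeps target genes silent.

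FN1 and VIM were the members that rose in both arms with GSK126, and their promoters are shown because these genes carried the largest increases among the tested members. The sequences are the 250 bases before the RefSeq start of each gene in GRCh38.p14. FN1 lies on the minus strand of chromosome 2 (215360440 to 215436073 in GENCODE 44 on hg38) and its window is chr2:215436069-215436318. VIM lies on the plus strand of chromosome 10 (17228241 to 17237593) and its window is chr10:17227991-17228240. Each is written 5′ to 3′ on the strand of its gene, and capitals mark a cAMP response element (TGACGTCA) or a GC box (GGGCGG, searched on both strands as CCGCCC too).
FN1 promoter: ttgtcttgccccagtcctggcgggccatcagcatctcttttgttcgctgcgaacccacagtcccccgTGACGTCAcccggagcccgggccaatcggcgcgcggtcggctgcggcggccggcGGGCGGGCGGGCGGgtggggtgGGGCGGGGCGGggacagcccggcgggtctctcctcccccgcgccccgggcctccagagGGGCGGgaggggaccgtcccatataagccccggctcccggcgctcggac
VIM promoter: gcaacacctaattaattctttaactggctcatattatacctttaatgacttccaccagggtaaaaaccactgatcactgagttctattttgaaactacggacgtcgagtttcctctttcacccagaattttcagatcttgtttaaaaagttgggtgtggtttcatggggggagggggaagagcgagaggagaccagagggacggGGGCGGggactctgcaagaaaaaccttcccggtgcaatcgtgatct

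The FN1 window held 1 cAMP response element, 183 to 176 bases before the start, and 6 GC boxes, some of them overlapping. The element was present in 1.65% of 35116 RefSeq promoter windows of the same length, and a GC box in 42.6%. The VIM window held 1 GC box, 46 to 41 bases before the start. The FN1 window was rich in CpG, with 32 CpG and 76.4% GC, and 90.5% of the windows had fewer CpG. The VIM window had 8 CpG and 46% GC, and 43.7% of the windows had fewer CpG. E-boxes of the kind bound by SNAIL and ZEB (CACCTG, or CAGGTG on the other strand) were present in 17.5% of all windows, and neither the FN1 nor the VIM window held these letters. Neither window held the exact letters searched for an AP-1 site (TGANTCA, 6.57% of windows) or a TATA box (TATAAA, 10.7%). Variants of these letters were not searched, and the FN1 window does hold the similar letters ATATAAG shortly before the start. These matches describe letters and say nothing of binding. ZEB1 and ZEB2 were the only other members in the promoter table. Of the 7 starts listed for ZEB1, the first held 1 E-box and the third held 2, and the ZEB2 window held none.

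The libraries held from 8785218 (GSK A) to 44437751 (DMSO C) counts in genes. Levels are given as CPM (counts relative to library size) after TMM scaling, which sets the libraries to a common scale from genes that change little. The share of reads that fell outside genes rose across the arms, from 14.19% ± 0.481 with vehicle to 15.56% ± 0.268 under GDC-0941, 18.78% ± 0.264 under GSK126 and 21.82% ± 1.07 under the combination (SD, n = 3). It moved in the same order as the levels of FN1 and VIM, and its part in any result was not tested. Markers of the luminal prostate cell were expressed in every library, and they did not move together. From DMSO to COMBO the mean level of KLK3, which encodes prostate-specific antigen, went from 596 to 1842 CPM and that of the luminal keratin KRT8 from 236 to 299 CPM. KRT18, its keratin partner, stood at 322 and 319 CPM, and the homeobox factor HOXB13 went from 484 to 303 CPM. Changes are log2 fold changes with their standard errors (SE) from the quasi-likelihood test of edgeR, with p adjusted by the Benjamini-Hochberg method over all 14189 genes and a threshold of 0.05.

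FN1, which encodes the extracellular matrix glycoprotein fibronectin, showed the largest change of the 7 tested members. Its levels were 297, 264 and 277 CPM (A, B and C) with vehicle, 444, 459 and 513 CPM under GDC-0941, 1762, 1693 and 2205 CPM under GSK126, and 2657, 2520 and 2865 CPM under the combination. No 2 arms overlapped, and the order was DMSO, GDC, GSK, COMBO. FN1 rose 1.69-fold in GDC (log2 0.76, SE 0.078, adjusted p = 3.9e-07), 6.76-fold in GSK (log2 2.76, SE 0.0814, adjusted p = 2.96e-16) and 9.60-fold in COMBO (log2 3.26, SE 0.0829, adjusted p = 5.54e-18). In COMBO its increase ranked 290 of the 14189 genes. COMBO exceeded GSK by 0.51 (SE 0.0755, adjusted p = 1.66e-05) and GDC by 2.50 (SE 0.0801, adjusted p = 4.23e-16) on the log2 scale. FN1 took 0.0258% of all gene counts in DMSO and 0.286% in COMBO.

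VIM encodes the intermediate filament protein vimentin. Its levels were 30.5, 37.9 and 33.7 CPM with vehicle, 40.7, 34.7 and 41.9 CPM under GDC-0941, 62.2, 63.7 and 65.8 CPM under GSK126, and 84.9, 89.8 and 96.4 CPM under the combination. DMSO and GDC overlapped, while every GSK library lay above both and every COMBO library lay above every GSK library. VIM rose 1.86-fold in GSK (log2 0.90, SE 0.0774, adjusted p = 2.08e-09) and 2.63-fold in COMBO (log2 1.40, SE 0.0731, adjusted p = 4.35e-13). Its difference between GDC and DMSO was 0.18 on the log2 scale and missed the threshold (SE 0.0795, adjusted p = 0.0721), and it passed with library totals (0.22, adjusted p = 0.0347) and without DMSO B or GDC B. Against GSK, COMBO was higher by 0.50 (SE 0.0721, adjusted p = 1.21e-05). The increases of FN1 and VIM in GSK and in COMBO passed in each of the 13 alternative analyses.

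**Figure D1:**
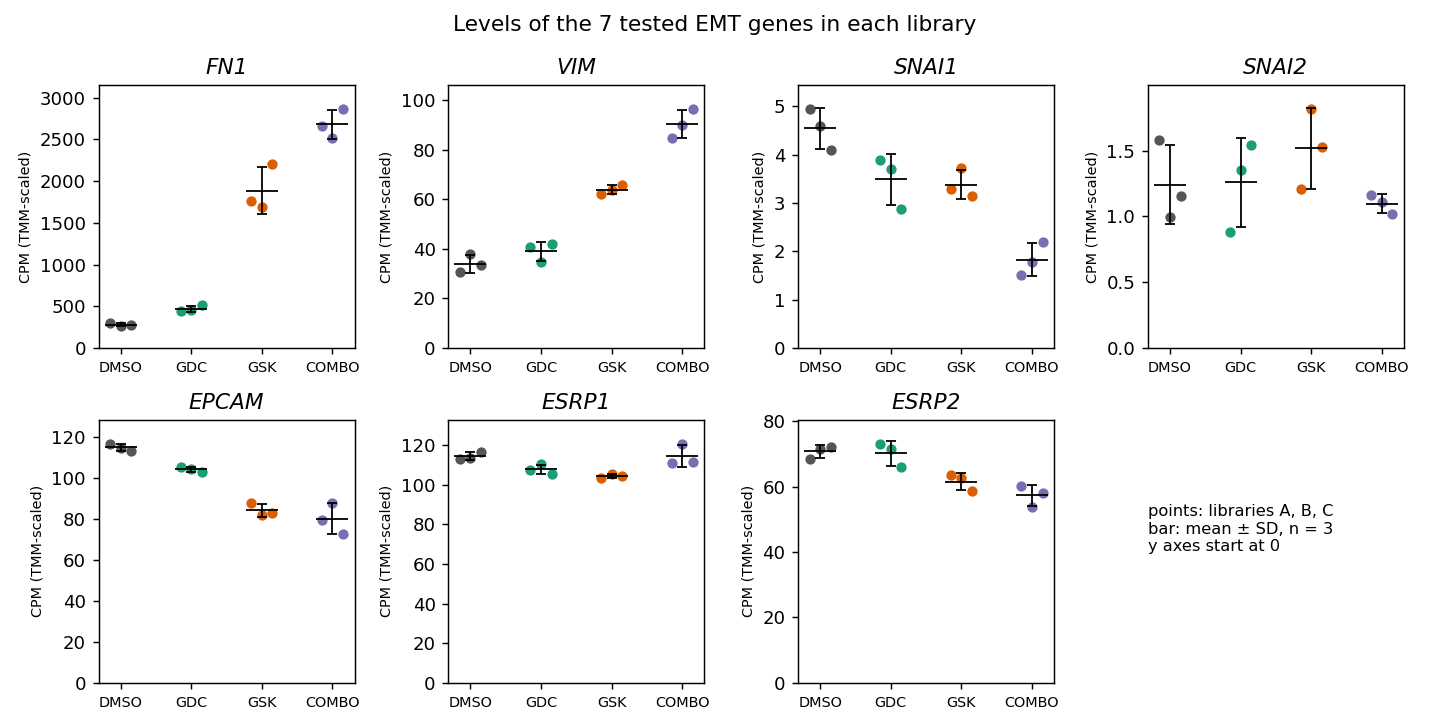
Level (TMM-scaled CPM, axes from 0) of each of the 7 tested genes in the 12 libraries by arm. Points are libraries and bars the mean ± SD of 3; FN1 climbs from 280 CPM on average in DMSO to 2681 CPM in COMBO and VIM from 34.0 to 90.4 CPM, while SNAI1 falls from 4.54 to 1.82 CPM and ESRP1 stays between 103 and 121 CPM.

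SNAI1 (chromosome 20, 49982980 to 49988886, plus strand) encodes SNAIL, a zinc finger repressor of E-cadherin, and it moved opposite to the mesenchymal markers. Its levels were 4.94, 4.59 and 4.09 CPM (47, 83 and 170 counts) with vehicle, 3.89, 3.69 and 2.88 CPM under GDC-0941, 3.29, 3.71 and 3.13 CPM under GSK126, and 1.51, 1.77 and 2.18 CPM under the combination (26, 40 and 30 counts). Every COMBO library lay below every other library, and the GDC and GSK libraries overlapped each other and lay below DMSO. SNAI1 fell by 1.29 on the log2 scale in COMBO, to 0.408 of the DMSO level (SE 0.172, adjusted p = 8.36e-07). COMBO was also lower than GDC (log2 -0.94, SE 0.19, adjusted p = 0.000158) and lower than GSK (log2 -0.91, SE 0.199, adjusted p = 0.000881). The change with GSK126 alone was near the threshold (log2 -0.38, SE 0.169, adjusted p = 0.0481), and 6 of 13 alternatives moved it past 0.05, with library totals (adjusted p = 0.235), with DESeq2 (adjusted p = 0.0994) and without DMSO A, DMSO B, GSK A or GSK C. With GDC-0941 alone the difference was -0.35 (SE 0.16, adjusted p = 0.0898). A pseudogene, SNAI1P1, resembles SNAI1. Reads that aligned to more than 1 place were set aside in the counting (8.047% to 9.033% per library). How many of them came from SNAI1 is not known.

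SNAI2 encodes SLUG, the second SNAIL family repressor, and lies on chromosome 8 (48917598 to 48921740, minus strand). Its levels were 1.58, 0.995 and 1.15 CPM with vehicle, 0.883, 1.35 and 1.54 CPM under GDC-0941, 1.21, 1.82 and 1.52 CPM under GSK126, and 1.16, 1.11 and 1.02 CPM under the combination, from 10 to 48 counts per library. All arms overlapped DMSO. SNAI2 passed in none of the 5 pairwise comparisons, and the 95% interval of its COMBO change ran from -0.629 to 0.434 on the log2 scale (adjusted p = 0.747), so that changes in either direction within this interval remain possible.

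The remaining 3 drivers were at the limit of detection. With no read seen, up to 3 reads remain possible, a limit of 0.0721 to 0.33 CPM that depended on library depth. ZEB1 (chromosome 10, 31318495 to 31529814), a zinc finger repressor of epithelial genes, had 3, 2 and 5 counts with vehicle, 2, 5 and 4 under GDC-0941, 7, 2 and 5 under GSK126, and 10, 10 and 9 under the combination. Each COMBO library therefore had more ZEB1 reads than any other library, although DMSO C was the deepest of all. Relative to depth the COMBO libraries (0.580, 0.444 and 0.655 CPM) were not separate from GSK. The shallow GSK A stood above all of them at 0.769 CPM. Pooled over the arm, ZEB1 was at 3.75 times the DMSO level in COMBO (95% counting interval 1.78 to 8.62, 29 against 10 counts), 2.89 times in GSK (1.19 to 7.26) and 1.79 times in GDC (0.691 to 4.7). When all 19935 genes with a count entered the edgeR fit, the COMBO difference passed (log2 1.78, SE 0.579, adjusted p = 0.00375) and the GSK difference did not (log2 1.38, adjusted p = 0.0692). These intervals cover counting error only.

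The ZEB1 reads could not be separated from those of its divergent neighbour, because the use of strand in counting was not stated. ZEB1-AS1, a long noncoding RNA that overlaps the ZEB1 locus on the opposite strand, was far more abundant than ZEB1. Its levels were 9.26, 7.18 and 7.57 CPM with vehicle, 6.54, 7.08 and 6.84 CPM under GDC-0941, 8.02, 10.1 and 9.57 CPM under GSK126, and 12.1, 13.1 and 11.6 CPM under the combination. The COMBO libraries lay above all others. ZEB1-AS1 rose by 0.66 in COMBO on the log2 scale (adjusted p = 1.02e-05), and its differences in GSK (0.26, adjusted p = 0.0574) and GDC (-0.19) missed the threshold. With library totals the GSK difference passed (0.41, adjusted p = 0.00421).

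TWIST1 (chromosome 7, 19020991 to 19117636, minus strand), a basic helix-loop-helix factor, had 2, 0 and 0 counts with vehicle, 0 in each GDC library, 4, 5 and 1 under GSK126, and 3, 7 and 2 under the combination. Reads were thus found in all 6 libraries that received GSK126 and in 1 of the 6 that did not. Pooled counts gave 10.3 times the DMSO level in GSK (2.2 to 96.7, 10 against 2 counts) and 7.76 times in COMBO (1.73 to 71.4, 12 against 2 counts). With all 19935 genes in the fit, TWIST1 passed under GSK126 (adjusted p = 0.00889) and under the combination (adjusted p = 0.018), and DESeq2 gave adjusted p = 0.0657 and 0.128. ZEB2 (chromosome 2, 144364364 to 144521057, minus strand) had 1 count in DMSO B and 0 in the other 11 libraries. Pooled per arm, 3 counts amounted to 0.0434 (DMSO), 0.0706 (GDC), 0.0894 (GSK) and 0.0561 CPM (COMBO), and ZEB2 was below these limits in every arm.

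**Figure D2:**
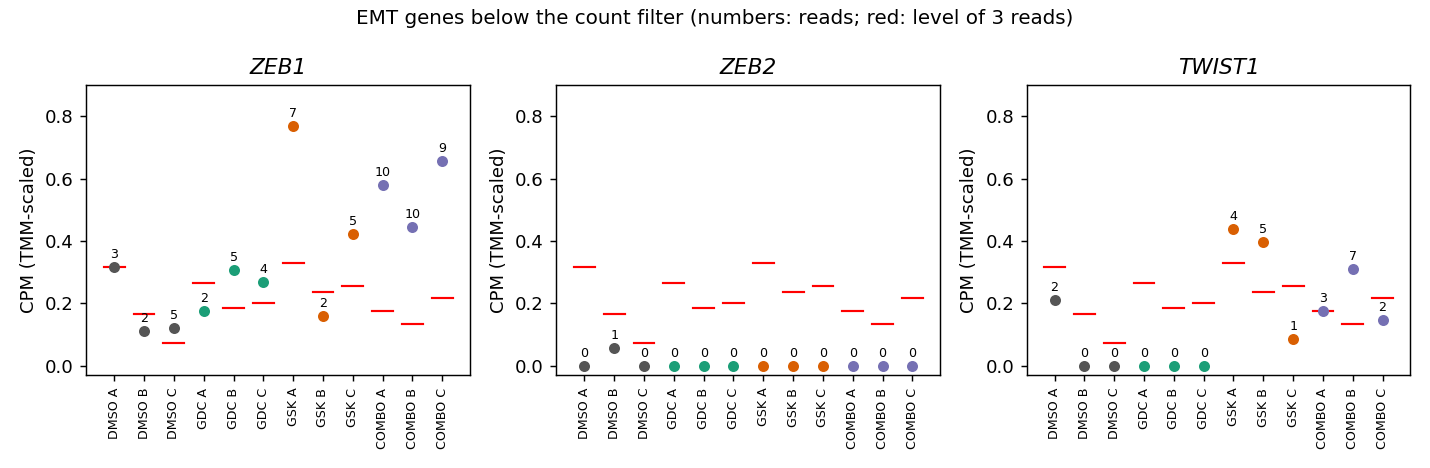
ZEB1, ZEB2 and TWIST1 in each of the 12 libraries (TMM-scaled CPM), with the number of reads above each point and a red line at the level of 3 reads in that library. ZEB1 has 9 or 10 reads in each COMBO library, TWIST1 reads appear in the 6 libraries with GSK126 and in DMSO A, and ZEB2 has 1 read in all.

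EPCAM, an epithelial cell adhesion molecule (chromosome 2, 47345158 to 47387601, plus strand), fell in both arms with GSK126. Its levels were 117, 115 and 114 CPM with vehicle, 105, 105 and 103 CPM under GDC-0941, 87.9, 81.9 and 83.1 CPM under GSK126, and 79.7, 87.9 and 73.0 CPM under the combination. GSK and COMBO overlapped each other and lay below all DMSO and GDC libraries. EPCAM fell to 0.732 of the DMSO level in GSK (log2 -0.45, SE 0.058, adjusted p = 7.21e-07) and to 0.700 in COMBO (log2 -0.51, SE 0.0563, adjusted p = 4.95e-08), and both changes passed in all 13 alternatives. COMBO did not pass against GSK (log2 -0.06, 95% interval -0.188 to 0.059, adjusted p = 0.396). The GDC libraries lay below the DMSO libraries by 0.14 on average (SE 0.0561), which missed the threshold at adjusted p = 0.0539 and passed in 10 of 13 alternatives (adjusted p from 0.00389 to 0.13).

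ESRP1 and ESRP2 are RNA-binding proteins that impose epithelial exon choice, for instance on FGFR2 and CD44 transcripts. ESRP1 (chromosome 8, 94641074 to 94707466, plus strand) was at 113, 114 and 116 CPM with vehicle, 107, 110 and 106 CPM under GDC-0941, 103, 105 and 104 CPM under GSK126, and 111, 121 and 112 CPM under the combination. The whole range over the 12 libraries was thus from 103 to 121 CPM. ESRP1 was lower in GSK (log2 -0.13, SE 0.0475, adjusted p = 0.0152) and did not differ from DMSO beyond its error in COMBO (log2 0.0017, 95% interval -0.095 to 0.098, adjusted p = 0.975). Both depended on the scaling: with library totals the GSK difference was 0.02 (adjusted p = 0.715) and the COMBO difference was 0.21 (adjusted p = 0.000234). COMBO was higher than GSK by 0.14 (SE 0.0475, adjusted p = 0.0246), a call that was lost without GSK C (adjusted p = 0.0707) or COMBO B (adjusted p = 0.0527).

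ESRP2 (chromosome 16, 68229033 to 68238102, minus strand) was at 68.5, 71.5 and 72.2 CPM with vehicle, 73.1, 71.4 and 65.9 CPM under GDC-0941, 63.5, 62.6 and 58.5 CPM under GSK126, and 60.1, 53.7 and 58.2 CPM under the combination. GDC overlapped DMSO, and every GSK and COMBO library lay below both. ESRP2 fell by 0.21 in GSK (SE 0.0582, adjusted p = 0.00323) and by 0.31 in COMBO (SE 0.0562, adjusted p = 3.91e-05) on the log2 scale. With library totals these calls were lost, at -0.05 (adjusted p = 0.421) and -0.10 (adjusted p = 0.105). Such scaling raised the median of all genes by 0.153 in GSK and 0.206 in COMBO, so the size of the ESRP changes is given relative to the TMM scale. ESRP2 overlaps NFATC3, which averaged 78.0, 71.2, 64.1 and 68.0 CPM in DMSO, GDC, GSK and COMBO. Reads that hit more than 1 gene were set aside in the counting (1.662% to 1.995% per library). Whether strand was used was not stated, and how many of these reads lay in the shared stretch is not known.

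Across the members, the calls were next set against the share of all tested genes that passed in each comparison, because these inhibitors moved much of the transcriptome. The 3 comparisons with DMSO share the same DMSO libraries. In GDC, 1 of the 7 tested members passed (FN1, higher), beside 40.1% of all genes (20.0% higher and 20.0% lower). In GSK, 6 of 7 passed, 2 higher and 4 lower, beside 75.8% of all genes (40.0% higher and 35.8% lower). In COMBO, 5 of 7 passed, 2 higher and 3 lower, beside 82.5% of all genes (43.3% higher and 39.2% lower). With 7 genes these counts say little of the members as a group. By size of change in COMBO, FN1 lay above 98% of genes, VIM above 86.6% and SNAI1 above 6.47%. The median log2 change of the 7 members was -0.10 in COMBO and that of all genes was 0.054. With library totals both were higher, at 0.11 and 0.261, so the sign of the members' median depended on the scaling while it stayed below that of all genes.

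COMBO was then compared with each inhibitor alone. Against GDC, 5 of 7 members passed, 2 higher (FN1 and VIM) and 3 lower (SNAI1, EPCAM and ESRP2), beside 76.0% of all genes (37.9% higher and 38.0% lower). Against GSK, 4 of 7 passed, 3 higher (FN1, VIM and ESRP1) and SNAI1 lower, beside 45.9% of all genes (19.0% higher and 26.9% lower). Relative to the other genes, the SNAI1 decrease against GSK was large, with 2.38% of genes falling further, while FN1 and VIM increased more than 91.6% and 91.3% of genes.

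**Figure D3:**
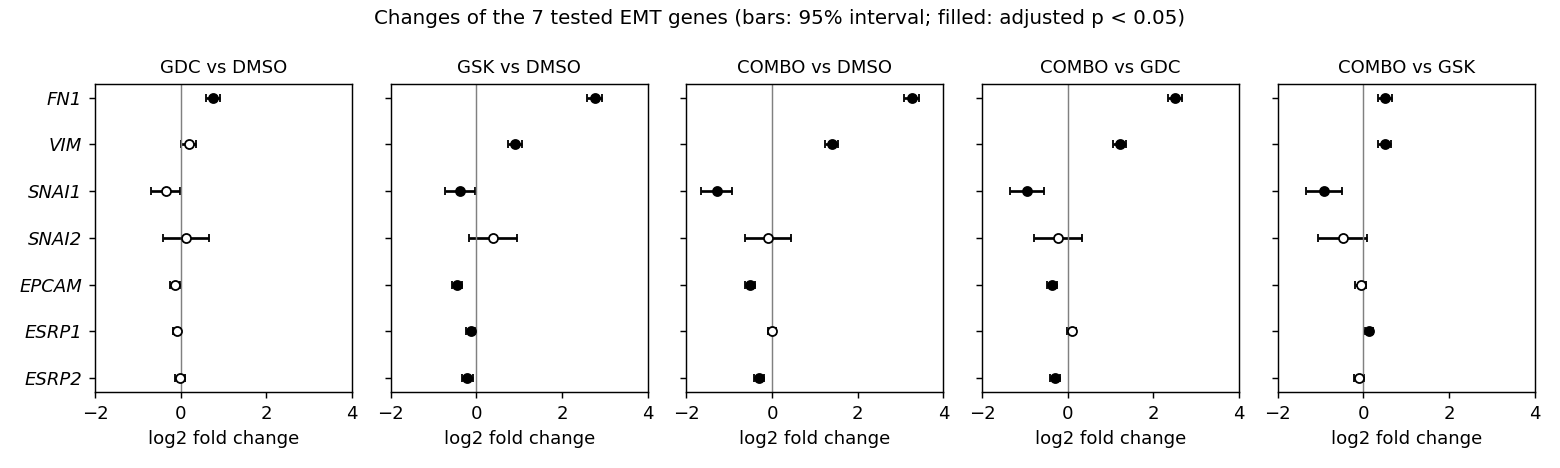
Log2 fold change of the 7 tested genes in 5 comparisons (x axis) with 95% intervals; filled points have an adjusted p under 0.05. FN1 and VIM lie to the right of 0 in every panel with GSK126, reaching 3.26 and 1.40 in COMBO against DMSO, SNAI1 lies at -1.29 there, and the wide SNAI2 intervals cross 0 throughout.

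Whether GDC-0941 acted differently in cells held in GSK126 was asked by the interaction (the COMBO change less the sum of the GDC and GSK changes, on the log2 scale), which is 0 when the single changes add up. It passed for 2 of the 7 members, both higher, beside 21.4% of all genes (4.86% higher and 16.5% lower). VIM exceeded the sum of its single changes, 1.40 against 1.08, by 0.31 (SE 0.107, adjusted p = 0.0428), and the call was lost without DMSO B (adjusted p = 0.0512), GDC B (adjusted p = 0.0577) or COMBO C (adjusted p = 0.0762). ESRP1 departed by 0.22 (SE 0.0667, adjusted p = 0.0208), since GDC-0941 was accompanied by a difference of -0.09 without GSK126 and by 0.14 with it, and this call held in all 18 alternatives. FN1 fell short of its sum, 3.26 against 3.52, by an amount that missed the threshold (-0.25, SE 0.108, adjusted p = 0.105). For SNAI1 the departure was -0.56 (SE 0.256, adjusted p = 0.127), and for SNAI2 it was -0.61 (adjusted p = 0.27). EPCAM (0.08, adjusted p = 0.563) and ESRP2 (-0.08, adjusted p = 0.506) lay close to additivity.

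**Figure D4:**
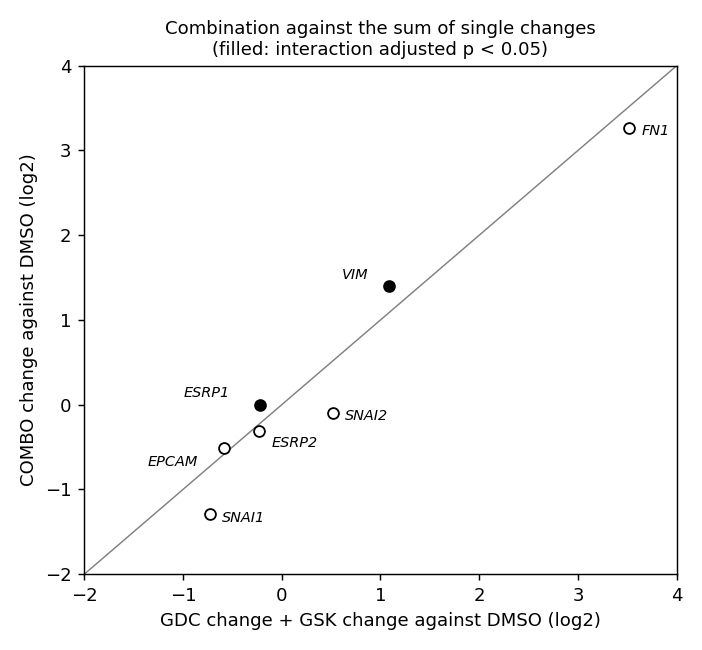
Log2 change in COMBO against DMSO (y axis) plotted over the sum of the changes in GDC and GSK (x axis) for the 7 tested genes, with the line of equality; filled points have an interaction with an adjusted p under 0.05. VIM (1.40 over 1.08) and ESRP1 (0.00 over -0.22) lie above the line, and FN1 (3.26 over 3.52) lies below it without passing the test.

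To compare levels between genes, CPM were divided by the length of the canonical transcript, giving RPKM (CPM per kilobase). In DMSO the order was EPCAM (74.4 RPKM ± 1.12), FN1 (33.3 ± 1.99), ESRP1 (30.3 ± 0.517), ESRP2 (20.6 ± 0.581), VIM (15.8 ± 1.71), SNAI1 (2.66 ± 0.252) and SNAI2 (0.570 ± 0.138, SD, n = 3). Epithelial and mesenchymal transcripts were therefore both present in untreated cells. In COMBO FN1 came first at 319.5 RPKM ± 20.7, ahead of EPCAM (51.8 ± 4.84), VIM (42.0 ± 2.69) and ESRP1 (30.4 ± 1.44). Among 19075 genes with a length, FN1 moved from rank 2412 with vehicle to 1356 under GDC-0941, 200 under GSK126 and 119 under both, and VIM from 4477 to 1467. EPCAM kept a rank between 1046 and 1216 in all 4 arms.

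Other genes of the transition were counted in lists drawn up by role, to be read against the shares of all genes given above for each arm (20.0% higher and 20.0% lower in GDC, 40.0% and 35.8% in GSK, 43.3% and 39.2% in COMBO). A gene was tested if at least 3 libraries reached 0.705 CPM before TMM scaling, and 5 listed genes (KLF8, TNC, TGFB1, TGFBR2 and GRHL3) did so only through the arms with GSK126, where they were higher, and SPARC only through those without. Their entry to the test depended on their differences, so their values are given as a description without a test. Where a list holds such genes, its first counts include them, and counts without them follow. Of 13 further EMT transcription factors 10 were tested. In GDC 2 of these rose and none fell, in GSK 7 rose and 2 fell, and in COMBO 6 rose and 2 fell, so that 8 of 10 passed in COMBO beside 82.5% of all genes. The median log2 change in COMBO was 0.88, beside 0.054 for all genes (0.016 in GDC and 0.058 in GSK). Without KLF8, 5 of 9 rose and 2 fell in COMBO, and the median was 0.42. Under GSK126 alone 6 of these 9 were higher and 2 lower (median 0.32). Under GDC-0941 alone 1 was higher and 0 lower. KLF8, a Krüppel-like factor, had mean levels of 0.340 (DMSO), 0.783 (GDC), 2.32 (GSK) and 3.37 CPM (COMBO), from 19, 33, 80 and 182 counts per arm. SOX9, an SRY-box factor, rose by 2.59 in COMBO (SE 0.0866, adjusted p = 3.46e-16), with mean levels of 8.94 (DMSO), 10.2 (GDC), 41.7 (GSK) and 53.7 CPM (COMBO). TCF3, which encodes the E-box-binding E proteins E12 and E47, was among those that fell (-0.60, adjusted p = 1.34e-09). TWIST2, PRRX1 and FOXC2 were too rare to test, with 2, 7 and 0 counts over all 12 libraries.

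The mesenchymal markers did not move as a block. Of 20 listed genes only 10 were tested, of which 2 rose and 3 fell in GDC, 5 rose and 1 fell in GSK, and 5 rose and 3 fell in COMBO (median 0.23). The 8 of 10 that passed in COMBO stand beside 82.5% of all genes. With library totals 6 rose and 2 fell in COMBO and the median was 0.43. On the TMM scale without TNC and SPARC, 4 of 8 rose and 2 fell there. The same 8 genes gave 4 higher and 0 lower under GSK126 alone (median 0.42). Under GDC-0941 alone they gave 2 higher and 2 lower. TNC, which encodes the matrix glycoprotein tenascin C, ranged from 0.105 to 0.497 CPM in DMSO (27 counts), 0.123 to 0.707 in GDC (16 counts), 2.61 to 3.30 in GSK (98 counts) and 4.12 to 6.04 in COMBO (264 counts). The matrix glycoprotein THBS1 rose by 3.56 in COMBO on the log2 scale (SE 0.0656, adjusted p = 9.4e-20), and it averaged 83.7 (DMSO), 123 (GDC), 868 (GSK) and 990 CPM (COMBO). SPARC, a matricellular protein, averaged 1.88 (DMSO), 0.742 (GDC), 0.932 (GSK) and 0.389 CPM (COMBO), from 123, 31, 31 and 20 counts per arm. CYR61 fell by 0.64 (adjusted p = 3.27e-05) on the log2 scale. The other 10 had between 1 and 44 counts over all libraries together. CDH2, which encodes N-cadherin, had 1 count in all, and POSTN and CDH11 likewise had 1 each. CD44 had 8 and AXL 42.

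Epithelial markers and junction genes were all expressed. Of 28 genes, 8 rose and 4 fell in GDC, 22 rose and 6 fell in GSK, and 16 rose and 5 fell in COMBO, with medians of 0.005, 0.54 and 0.26. In all, 12, 28 and 21 passed, beside 40.1%, 75.8% and 82.5% of all genes. The counts moved with the scaling, to 6 higher and 7 lower in GDC with median-of-ratios size factors and to 23 higher and 3 lower in COMBO with library totals (median 0.47). The mucin MUC1 (log2 2.63, adjusted p = 2e-10) and the protease prostasin, PRSS8 (log2 1.63, adjusted p = 7.01e-16), rose furthest in COMBO. CDS1 (-0.89, adjusted p = 1.61e-10) and the plakophilin PKP3 (-0.73, adjusted p = 7.01e-09) fell furthest. CDH1, which encodes E-cadherin and was singled out after its values were seen, averaged 732 CPM ± 18.4 with vehicle, 685 ± 7.19 under GDC-0941, 833 ± 27.5 under GSK126 and 740 ± 27.6 under both (SD, n = 3). It rose by 0.19 in GSK (adjusted p = 0.000212) and missed the threshold in COMBO (0.02, adjusted p = 0.681), where library totals gave 0.23 (adjusted p = 1.35e-05).

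The epithelial transcription factors moved in both directions. Of 12, 11 were tested, and 4 rose and 2 fell in GDC, 6 rose and 4 fell in GSK, and 5 rose and 1 fell in COMBO (median 0.52). The 6 that passed in COMBO stand beside 82.5% of all genes, against 10 beside 75.8% in GSK and 6 beside 40.1% in GDC. With library totals 7 rose and 0 fell in COMBO (median 0.73). On the TMM scale without GRHL3, 5 of 10 rose and 1 fell there, and the median was 0.30. These 10 genes gave 5 higher and 4 lower under GSK126 alone (median 0.14). Under GDC-0941 alone they gave 4 higher and 2 lower. The ETS factor ELF3 (log2 1.74, adjusted p = 7.74e-16) and KLF4 (log2 1.56, adjusted p = 9.8e-14) rose furthest in COMBO. EHF fell by 0.18 (adjusted p = 0.000605), which library totals turned to 0.02 (adjusted p = 0.576). TP63, the remaining factor, had 5 counts in all.

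TGF-beta is a classical inducer of EMT, and of 16 genes of its pathway 3 rose and 3 fell in GDC, 11 rose and 2 fell in GSK, and 9 rose and 2 fell in COMBO (median 0.35). The 11 that passed in COMBO stand beside 82.5% of all genes, and the 6 and 13 in GDC and GSK beside 40.1% and 75.8%. With library totals 13 rose and 1 fell in COMBO (median 0.56). On the TMM scale without TGFB1 and TGFBR2, 7 of 14 rose and 2 fell there (median 0.27). Of these 14 genes, 9 were higher and 2 lower under GSK126 alone (median 0.20). Under GDC-0941 alone 2 were higher and 3 lower. The ligand gene TGFB1 had 1 count over the 3 DMSO libraries, 4 over the GDC, 16 over the GSK and 38 over the COMBO libraries. Scaled to depth it averaged 0.0080 (DMSO), 0.095 (GDC), 0.468 (GSK) and 0.693 CPM (COMBO), and no ratio is drawn from 1 DMSO count. The receptor gene TGFBR2 had mean levels of 0.435 (DMSO), 0.821 (GDC), 3.14 (GSK) and 4.07 CPM (COMBO), from 27, 34, 105 and 216 counts per arm. BMP7, a ligand of the BMP branch, fell by 1.21 (adjusted p = 6.41e-10), and the inhibitory SMAD6 by 0.25 (adjusted p = 0.00549), the latter call being lost with library totals (adjusted p = 0.585).

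RNA-binding proteins that set epithelial or mesenchymal splicing beside ESRP1 and ESRP2 were all tested. Of 11, 1 rose and 4 fell in GDC, 3 rose and 8 fell in GSK, and 4 rose and 6 fell in COMBO (median -0.30, or -0.09 with library totals). Thus 5, 11 and 10 passed, beside 40.1%, 75.8% and 82.5% of all genes. MBNL2 (log2 1.64, adjusted p = 6.85e-09) and KHDRBS3 (log2 1.19, adjusted p = 6.72e-08) rose furthest in COMBO. SRSF1 fell by 1.50 (adjusted p = 9.77e-16), from 734 to 259 CPM, and PTBP1 by 1.41 (adjusted p = 6.22e-16). The counts hold whole genes and give no exon usage, so splicing itself was not measured. Of 7 antisense or divergent neighbours of the members only ZEB1-AS1 is reported here.

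**Figure D5:**
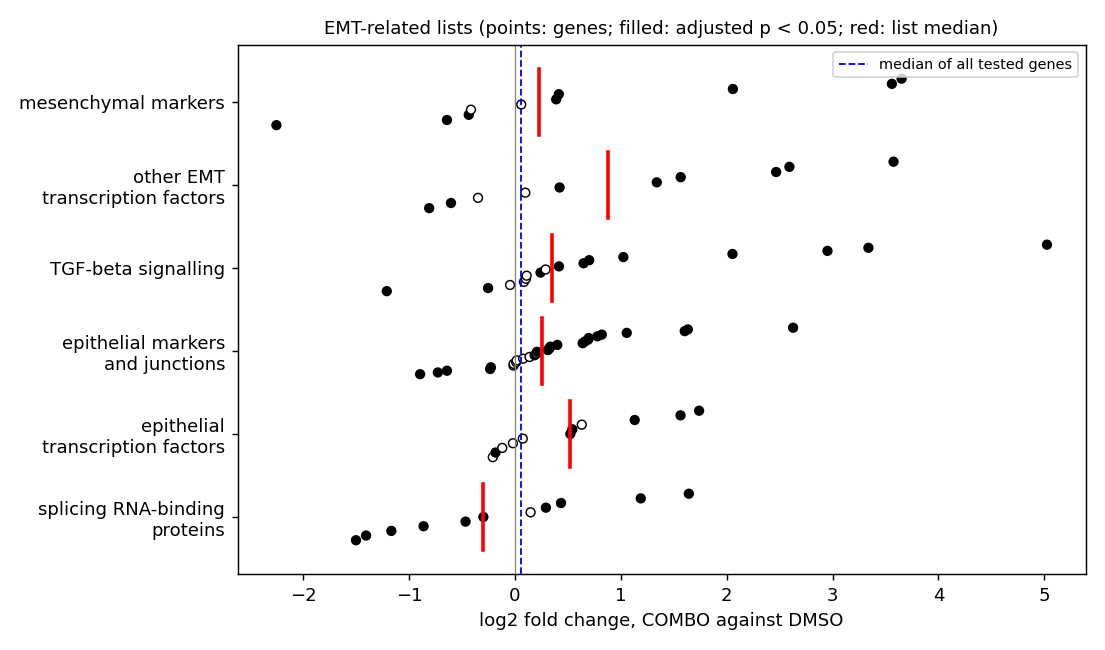
Log2 change in COMBO against DMSO (x axis) for every tested gene of 6 lists (y axis); filled points have an adjusted p under 0.05 (for KLF8, TNC, SPARC, TGFB1, TGFBR2 and GRHL3 a description only), red bars are list medians and the dashed line is the median of all genes, 0.054. Mesenchymal markers spread from SPARC at -2.25 to TNC at 3.65. Of the medians drawn, that of the other EMT factors is highest at 0.88 (0.42 without KLF8). The splicing proteins have the lowest at -0.30.

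Because fibroblasts carry VIM, FN1 and ZEB transcripts, markers of other cell types were counted too. The 9 fibroblast markers summed to 12.2 to 14.67 CPM with vehicle, 14.53 to 18.9 under GDC-0941, 29.64 to 41.95 under GSK126 and 31.89 to 50.88 under both, and so moved with FN1 and VIM. Most of this sum was COL1A1, with 10.5 CPM on average in DMSO and 35.8 in COMBO. COL1A2, DCN, LUM and FAP were at 0 in all DMSO and GDC libraries, and COL1A2 was also at 0 in COMBO. Pooled per arm, DCN had 3 counts in GSK and 12 in COMBO, LUM 11 and 6, and FAP 2 and 1. COL1A2 had 1 count in GSK. The 5 leukocyte markers summed to 4.839 to 5.692 CPM in DMSO, 5.565 to 6.279 in GDC, 6.919 to 9.559 in GSK and 7.642 to 9.631 in COMBO, with CD3E at 0 throughout. The 3 endothelial markers summed to 2.735 to 3.246 CPM in DMSO, 4.423 to 6.89 in GDC, 5.59 to 6.15 in GSK and 4.816 to 5.544 in COMBO, with PECAM1 at 0 in DMSO, GDC and COMBO. The leukocyte sum was thus also higher in the arms with GSK126, and the endothelial sum in all 3 treated arms. Nearly all of the leukocyte sum was CD68, at 5.31 CPM on average in DMSO and 8.07 in COMBO. PTPRC had 0 counts in DMSO and GDC, 5 in GSK and 7 in COMBO. MS4A1 had 4 counts, all in COMBO, and CD14 had 3, 2, 0 and 3 (DMSO, GDC, GSK and COMBO). Nearly all of the endothelial sum was VWF, at 2.97 and 5.13 CPM. The part of the marker sums in the levels of FN1 and VIM was not tested.

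The genes whose levels followed each member most closely over the 12 libraries were listed by Pearson correlation of log2 CPM among 11288 genes, as a description in which arms and libraries are shared. FN1 was followed most closely by COL12A1, NRP1 and BMF (each r = 0.998), and VIM by BACE2, LOC728377 and FAM160A1 (r = 0.992, 0.992 and 0.991). SNAI1 was followed by VCL, WDR1 and RELT (r = 0.966, 0.965 and 0.959). For EPCAM these were LSM12, VTA1 and ISCA1 (r = 0.989, 0.988 and 0.986), for ESRP2 METTL23, E2F4 and POMT2 (r = 0.982, 0.977 and 0.968), and for ESRP1 CCDC59, LRRC8D and C10orf46 (r = 0.902, 0.887 and 0.884). SNAI2 had the weakest likeness, with PHTF1, TTPAL and GORAB at r = 0.833, 0.803 and 0.751.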

How the data were processed

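PolyA RNA of C4.2B cells was sequenced in 12 libraries, 3 in each of 4 arms. The authors aligned reads to hg38 with STAR and counted them per gene with HTSeq, and the deposited count files hold whole reads per gene symbol, not normalized. Which versions and annotation were used, and whether counting was by strand, is not given in the sources used here. A deposited series table of DESeq2-normalized values was not used. The HTSeq summary lines, such as reads that hit no gene, entered neither library sizes nor tests.

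After filterByExpr (minimum count 10) and TMM scaling, a model with a mean for each arm was fitted to the 12 libraries together, without covariates, by edgeR 4.0.16 (glmQLFit and glmQLFTest, R 4.3.3). Tests were two-sided, and p was adjusted by Benjamini-Hochberg over 14189 genes with a threshold of 0.05. The common biological coefficient of variation was 0.0499. No pair of libraries within an arm agreed to within counting noise (chi-square per degree of freedom 1.764 to 6.178). Genes below the filter are given as counts, with 3 counts as the limit that a count of 0 allows and exact 95% intervals of pooled ratios, which cover counting error only. Likeness used log2 CPM (prior count 2) of genes with a mean of at least 2.

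The members and lists were chosen with earlier results of these data known. Named genes were all members, the 2 genes called in COMBO against DMSO with the largest change in each direction of each list, and the 3 genes most like each tested member. Some genes that this rule or the lists hold are not reported here. Coordinates are from GENCODE 44, which placed 19075 symbols, and promoters from RefSeq (GRCh38.p14), which held 4 of 10 members. The alternatives changed the scaling (median-of-ratios size factors or plain library totals), the filter (none, or 1 CPM on average), the model (DESeq2 1.42.0, only the compared arms, or a replicate block) or left out each library in turn. The scripts were tested on simulated data.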

Additional observations from a re-analysis of the deposited data

Results flagged for a closer look

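For 2 members the change that came with GDC-0941 differed between cells with and without GSK126 in a test of the interaction (edgeR quasi-likelihood test, n = 3 per arm). ESRP1 departed by 0.2234 on the log2 scale (SE 0.0667, adjusted p = 0.0208), with a difference of -0.09 without GSK126 and 0.14 with it. VIM departed by 0.3132 (SE 0.107, adjusted p = 0.0428), with 0.18 without GSK126 and 0.50 with it. The VIM call was lost without DMSO B, GDC B or COMBO C, and the ESRP1 call held in all 18 alternatives.

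Reads that fell outside annotated genes were used in no comparison. Their share was above the DMSO mean of 14.19% in each treated arm, at 15.56% in GDC, 18.78% in GSK and 21.82% in COMBO.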

How the results depend on the processing

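Of 42 combinations of a tested member and a comparison, 23 passed the threshold, and 16 of these passed in the same direction in every alternative run. Of the 19 that did not pass, 13 stayed so throughout. The rises of FN1 and VIM and the fall of EPCAM in GSK and in COMBO, and the fall of SNAI1 in COMBO, were among those that held. The differences of ESRP1 and ESRP2 from DMSO in GSK and COMBO depended on the scaling, while the interaction of ESRP1 and its difference between COMBO and GSK passed with library totals too. With library totals ESRP1 in GSK changed sign, to 0.019 (adjusted p = 0.715), and 3 members instead of 6 passed in GSK. Of 40 mean levels, 14 moved by more than their SD with library totals and 2 with median-of-ratios size factors. In GDC, where 1 member passed, 3 passed with size factors, with DESeq2, without a filter and with the 1 CPM filter, and 2 passed with library totals and with the compared arms only. Leaving out a library gave from 1 to 4. The members gained were EPCAM, ESRP1 and VIM, all with small differences.

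Over all genes, the interaction called 690 higher and 2344 lower. Without a filter it called 1638 and 1319, with a mean of at least 1 CPM 1151 were higher, and leaving out a library gave 733 to 1178 higher and 1277 to 2196 lower. The cause was not tested. With a library left out, 1 or 2 members passed the interaction. Genes called higher in GDC were 1844 to 2149 when a library was left out, lowest without DMSO C, against 2840. Among the genes called, the share that was higher moved by over 10 percentage points with library totals, from 52.8% to 63.9% in GSK, 52.5% to 63.2% in COMBO, 49.9% to 62.8% in COMBO against GDC and 41.4% to 52.3% in COMBO against GSK. In GDC it went from 50.0% to 38.7% with DESeq2 and 35.9% without a filter. For the interaction it went from 22.7% to 55.4% without a filter, 40.7% with a mean of at least 1 CPM, 35.2% with size factors and 33.4% with DESeq2.

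In the labels, libraries of different arms share only a letter. Over 18 pairs of same-lettered libraries the deviations from the arm means correlated at -0.084 to 0.188, with 2 over 0.1. In 6 of the 18 a library correlated best with its own letter. Both values over 0.1 were between GDC and COMBO. There each GDC library correlated best with its own letter in COMBO (A 0.116, B 0.188, C 0.073). The highest values with other letters were 0.045, -0.084 and -0.029. With the letter as a replicate block the interaction of FN1 passed (-0.25, adjusted p = 0.0348) and 3 members passed there instead of 2, and no other call on a member changed. The low counts of SNAI2, ZEB1, ZEB2 and TWIST1 limit what could be seen of them.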
